A study of Macaca mulatta with 24 samples.

Results

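The genes described here are 50 genes of synaptic vesicles, of calcium-triggered exocytosis and of vesicle retrieval. They were chosen by symbol and by what their proteins do at the presynaptic terminal, with earlier results of these data known. Their counts beside those of all genes are therefore descriptions. All 50 were among the 17208 gene symbols measured, all 50 reached an average of 1 TPM, as did 13637 genes in all, and 48 of them averaged 10 TPM or more (TPM, transcripts per 1000000, is a share of the RNA scaled for gene length). They fall into 6 roles, namely 4 SNAREs, 8 calcium sensors and related proteins, 6 genes of the fusion clamp and of SNARE recycling, 13 vesicle proteins, 14 active zone and priming genes and 5 endocytosis genes.

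Expression was measured by RNA-Seq of bulk tissue from the nucleus accumbens core (NAcc) of 24 unrelated adult male rhesus macaques, each sampled once. The drinkers went through 4 months of schedule-induced polydipsia, a food-delivery schedule that induces drinking, and then 12 months of free choice between 4% ethanol and water for 22 h a day. The 8 controls lived in the same rooms and followed the same schedule with water on both spouts and a 10% maltose dextrin solution to match calories, and tissue was taken with no imposed abstinence from a dissection of about 1 mm3. Drinkers were classed by consumption as LD* (8 animals, 1.58 ± 0.53 g/kg ethanol a day, mean ± SD) or HD* (8 animals). LD* combines low and binge drinkers, which the sample labels do not tell apart (all are labelled LD). HD* holds 4 heavy drinkers (HD, 2.92 ± 0.16 g/kg) and 4 very heavy drinkers (VHD, 3.37 ± 0.29 g/kg). The groups met in intake, since HD 2, the highest of HD, and VHD 3, the lowest of VHD, both averaged 3.09 g/kg. Consumption was the animals' own choice and not assigned. Cohort 4 held 2 LD* animals, cohort 5 held 3 controls, 2 HD and 2 VHD, cohort 7a held 2 controls, 3 LD*, 2 HD and 2 VHD, and the 6 animals of cohort 7b were 3 controls and 3 LD*. Animals are numbered within each group below.

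At a presynaptic terminal, vesicles are filled with transmitter, docked and primed at the active zone, and fused with the membrane when calcium enters. Fusion is driven by the SNARE complex of syntaxin, SNAP-25 and a synaptobrevin, is timed by synaptotagmins and complexins, and is followed by disassembly of the complex by NSF and by retrieval of membrane through clathrin and dynamin. Most neurons of the NAcc are GABAergic projection neurons whose axon collaterals make terminals locally, while RNA of terminals that arrive from the cortex, thalamus or midbrain is mostly held in cell bodies elsewhere. A dissection therefore reports mainly the RNA of the cells whose bodies lie in it, and in bulk tissue fewer cells of a type and less RNA per cell cannot be told apart.

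Several libraries stood apart before any comparison. Markers of projection neurons were present in every animal, none of the 15 at 0, but control 6 was low, with DRD1 at 8.1 TPM against 53.4 to 274 in the other controls and PPP1R1B at 304 TPM against 1109 to 3926. SLC17A7, a vesicular glutamate transporter of cortical neurons, ranged from 0.866 TPM to 722 TPM in LD 4, with 348 TPM in control 2 and 212 TPM in LD 2. MBP, a myelin gene, was highest in LD 5 (1801 TPM) and in control 6 (1497 TPM). Pairwise correlations of log2(TPM + 1) between animals ran from 0.893 to 0.992 and no 2 libraries were identical. The TMM factor, a scaling factor from a trimmed mean of ratios, was lowest in VHD 4 (0.684) and VHD 3 (0.830) and highest in VHD 2 (1.13). Read depth cannot be read from TPM, so no counting error is given.

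The most abundant of the 50 genes in the controls was SNAP25, the plasma membrane SNARE, at 1348 ± 463 TPM (mean ± SD, n = 8), followed by VAMP2 (synaptobrevin 2, the main vesicle SNARE of forebrain) at 1244 ± 158 TPM. RAB3A, the vesicle GTPase, averaged 783 ± 164 TPM, CPLX2 (complexin 2) 672 ± 186 TPM and SYNPR (synaptoporin) 616 ± 299 TPM. In the controls 22 genes averaged 100 TPM or more, 26 lay between 10 and 100 TPM, and SYN3 and CADPS2 lay under 10 TPM. Together the 50 genes took 1.06 ± 0.16% of all TPM in controls, 1.13 ± 0.20% in LD* and 1.01 ± 0.23% in HD*, and between 0.68% and 1.35% in single animals. Within HD* the share was 1.20 ± 0.053% in HD and 0.82 ± 0.16% in VHD (n = 4 each).

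**Figure D1:**
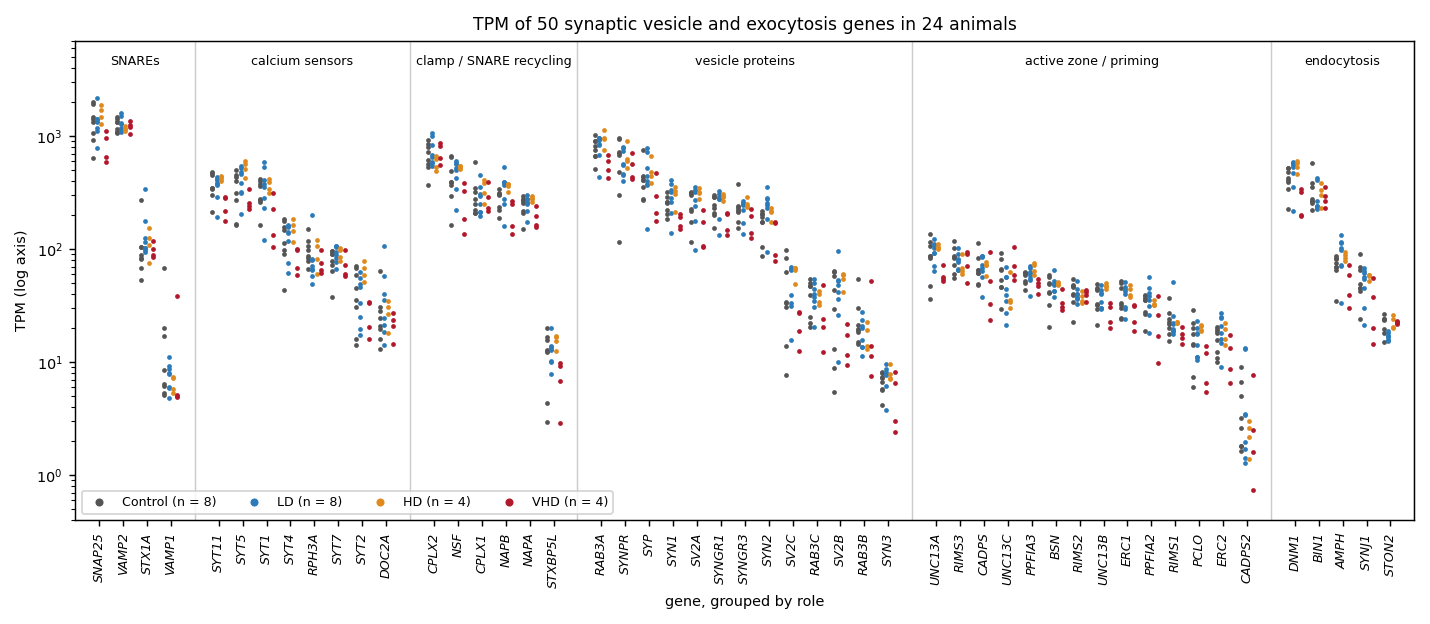
TPM on a log axis of the 50 genes, grouped by role and ordered by control mean, with 1 point per animal for controls (grey), LD (blue), HD (orange) and VHD (red). SNAP25 and VAMP2 lead at control means of 1348 and 1244 TPM, and VHD animals lie below HD animals for 27 genes with no overlap.

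Some families had 1 dominant paralogue and others had paralogues of similar level, with levels compared per length. VAMP2 exceeded VAMP1, its relative of fast-firing and spinal neurons, in 24 of 24 animals, by a median ratio of 174 and by the smallest ratio, 19.7, in control 6. RAB3A exceeded RAB3B and RAB3C in 24 of 24 animals, by medians of 44.3 and 22.3. SV2A, the vesicle glycoprotein that binds levetiracetam, exceeded SV2B by a median of 6.68 and SV2C by a median of 5.48, each in 24 of 24 animals. Complexin 2 exceeded complexin 1 in 23 of 24 animals (median ratio 2.51), the exception being control 6. Synapsin 1 exceeded synapsin 2 in 24 of 24 animals by a narrower median of 1.33. UNC13A, the main priming factor, exceeded UNC13B in 24 of 24 animals (median 2.38) and UNC13C in 19 (median 1.66, but 0.86 in VHD). SYNGR1 exceeded SYNGR3 and NAPB exceeded NAPA in 19 of 24 animals each, by medians of only 1.12 and 1.23. SNAP25 and VAMP2 themselves had no fixed order, with SNAP25 higher in 12 of 24 animals.

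The genes differed in how far they varied between animals. VAMP2 varied least, with an SD of 0.17 on the log2 scale over the 24 animals and values from 1040 to 1610 TPM. SV2B varied most, with an SD of 1.09 and values from 5.41 to 95.8 TPM. The median SD of the 50 genes was 0.50, against 0.32 for all 13637 genes. Expression was shared within the list to an uneven degree. Over the 24 animals 31 genes had a correlation of at least 0.7 with the mean of the other 49, among them SYT1 (r = 0.97) and DNM1 (r = 0.94), while 10 had a correlation under 0.3, among them VAMP2 (r = 0.15), RIMS2 (r = 0.13) and BIN1 (r = -0.085). UNC13C, a priming factor best known from cerebellar granule cells, was the lowest (r = -0.46). These correlations are descriptions, since the genes share libraries.

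The first question of the study was whether heavy drinkers differ from controls. No gene of the 50 passed in HD* against controls (limma, 0 of 50 at an adjusted p under 0.05, where the background was 0% of 13637 genes). At an unadjusted p under 0.05 the counts were 0 of 50 and 775 of 13637 (5.68%). The paper compared the same groups with DESeq2, a model of read counts, and called genes in both directions at an FDR under 0.05. Its table of glutamate and GABA genes, a part of those calls, lists SNAP25, SYT1, DNM1 and ERC2 as lower in HD*. Of the 50 differences, 40 were negative and 10 positive, with a median log2 fold change of -0.10 against -0.12 for all genes tested. The whole table leaned downward in this contrast, and rescaling by TMM (a trimmed mean of ratios) moved the median of all genes from -0.12 to -0.001, after which 32 of the 50 differences were positive. The per-animal score of the 50 genes (their mean centred log2(TPM + 1)) was 0.007 ± 0.28 in controls and -0.092 ± 0.41 in HD* (mean ± SD, n = 8 each), or 0.037 ± 0.29 in the 7 controls without control 6.

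Among the SNAREs, SNAP25 ran from 647 to 1990 TPM in controls (median 1379) and from 594 to 1885 TPM in HD* (median 1202). The ranges overlapped almost entirely, with a log2 fold change of -0.18 (SE 0.25, adjusted p = 0.785). VAMP1 gave the largest difference, -0.54 (SE 0.42, adjusted p = 0.706), from 5.06 to 67.8 TPM in controls (median 7.47) and 4.95 to 38.6 TPM in HD* (median 5.59). Its highest values were single animals, control 6 and VHD 2, and the other controls ended at 20.01 TPM and the other HD* animals at 7.39 TPM. VAMP2 differed by -0.06 (SE 0.10, adjusted p = 0.835), with a 95% interval from -0.26 to 0.15.

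SYT1, the fast calcium sensor of synchronous release, ran from 163 to 417 TPM in controls (median 320) and from 104 to 414 TPM in HD* (median 313), a log2 fold change of -0.26 (SE 0.30, adjusted p = 0.758). RPH3A (rabphilin, a RAB3 effector) differed by -0.25 (SE 0.22, adjusted p = 0.714) and the vesicle GTPase RAB3B by -0.40 (SE 0.29, adjusted p = 0.706), and with VAMP1 these had the smallest p of the 50. For RAB3B the highest animals were again control 6 (54.0 TPM) and VHD 2 (52.2 TPM). CPLX1 was the only gene of the fusion clamp and recycling role with a positive difference, 0.08 (SE 0.20, adjusted p = 0.885). CPLX2 differed by -0.02 (SE 0.18, adjusted p = 0.966), and the ATPase NSF, which takes SNARE complexes apart, by -0.15 (SE 0.30, adjusted p = 0.851).

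The remaining representatives of the roles did not pass either. The synapsin SYN1 differed by -0.11 (SE 0.20, adjusted p = 0.839) and SV2A by -0.14 (SE 0.29, adjusted p = 0.856). In the active zone, the scaffold RIMS1 differed by -0.19 (SE 0.18, adjusted p = 0.718) and bassoon (BSN) by -0.03 (SE 0.18, adjusted p = 0.957). In endocytosis, dynamin 1 (DNM1) differed by -0.11 (SE 0.25, adjusted p = 0.866) and amphiphysin 2 (BIN1) by -0.07 (SE 0.18, adjusted p = 0.879). The intervals show what this comparison could not tell apart: that of DNM1 ran from -0.62 to 0.40 and that of SV2A from -0.74 to 0.45. Under at least 1 other setting the value turned positive for VAMP1, VAMP2, RAB3B, CPLX2, NSF, SYN1, SV2A, BSN, DNM1 and BIN1.

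No gene of the 50 passed in LD* against controls (limma, 0 of 50, background 0%), and none in HD* against LD* (0 of 50, background 0%). These comparisons share their animals with the one above. Of the 50 differences, 37 were positive in LD* against controls (median 0.07, all genes -0.03) and 43 were negative in HD* against LD* (median -0.20, all genes -0.08). At an unadjusted p under 0.05 the counts were 1 of 50 in LD* against controls (all genes 387, 2.84%) and 1 of 50 in HD* against LD* (all genes 147, 1.08%). Both were STON2 (stonin 2, an adaptor that retrieves synaptotagmin from the membrane).

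STON2 ran from 15.5 to 18.7 TPM in LD* (median 16.8), from 20.04 to 26.2 TPM in HD* (median 22.4) and from 15.1 to 26.7 TPM in controls (median 23.8). Every HD* animal lay above every LD* animal, which held for 1 of the 13637 genes tested (0.00733%), and STON2 was that gene, while the controls overlapped both groups. The log2 fold change was 0.41 in HD* against LD* (SE 0.10, adjusted p = 0.937) and -0.35 in LD* against controls (SE 0.10, adjusted p = 1.00), so neither passed over all genes. In cohort 7a, the one cohort with both drinking groups, LD* animals had 16.5, 17.1 and 18.0 TPM and HD* animals 20.04, 20.6, 22.2 and 22.7 TPM. The order within cohort 7a had to hold, since the whole groups did not overlap. The difference was 0.30 within that cohort and 0.29 with cohort as a covariate (adjusted p = 0.701 and 0.641). That the groups did not overlap was noticed after the values were seen. Whether 1 such gene among 13637 is more than chance would give was not tested.

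SYN2, the second synapsin, ran from 93.5 to 356 TPM in LD* (median 250), from 78.5 to 231 TPM in HD* (median 175) and from 86.3 to 218 TPM in controls (median 184). Its log2 fold change was -0.52 in HD* against LD* (SE 0.26, adjusted p = 0.937) and 0.48 in LD* against controls (SE 0.26, adjusted p = 1.00). The active zone scaffold ERC2 had the next smallest p in HD* against LD* (-0.40, SE 0.23, adjusted p = 0.937), and UNC13C in LD* against controls (-0.47, SE 0.26, adjusted p = 1.00). All 3 genes overlapped between the groups.

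Intake gave the same genes a continuous scale in the 16 drinkers, where it cannot be told apart from the drinking groups. None of the 50 slopes passed (limma, 0 of 50, background 0%), and 41 were negative. Those with an unadjusted p under 0.05 numbered 7 negative and 2 positive, against 704 (5.16%) and 203 (1.49%) of all genes. STON2 had a slope of 0.23 on the log2 scale per g/kg a day (SE 0.05), SYN2 one of -0.41 (SE 0.13) and amphiphysin (AMPH), a partner of dynamin, -0.37 (SE 0.14), each with an adjusted p of 0.512. With cohort as a covariate the slope of SYN2 was -0.68 and that of STON2 0.18, with adjusted p of 0.134 and 0.195.

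Within HD*, VHD was compared with HD. The paper made this comparison in the same animals, and reports synaptic annotations among the genes higher in HD. VHD animals had less RNA of 26 of the 50 genes and more of 1, UNC13C, at an adjusted p under 0.05 (limma, 4 animals a group), where 1997 of all 13637 genes passed (14.6%), 1556 lower (11.4%) and 441 higher (3.23%). The median log2 fold change was -0.68 for the 50 genes and -0.17 for all genes, and after TMM rescaling -0.48 and 0.02. Under TMM 20 of the 50 genes fell and 1 rose, and the calls over all genes split into 1335 lower and 1231 higher. The calls of SYN1, SYN2, SYNGR3, RAB3A, NAPA, BSN and PPFIA3 were lost under TMM. All 4 VHD animals lay below all 4 HD animals for 27 genes (17.9% of all genes did so) and above them for 0 (5.39%). Called falls ran from -0.50 to -1.83, with a median of -0.85. With 4 animals against 4, an exact permutation test of a single gene could not go below 0.0286, so the adjusted p-values rest on limma's pooled spread.

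**Figure D2:**
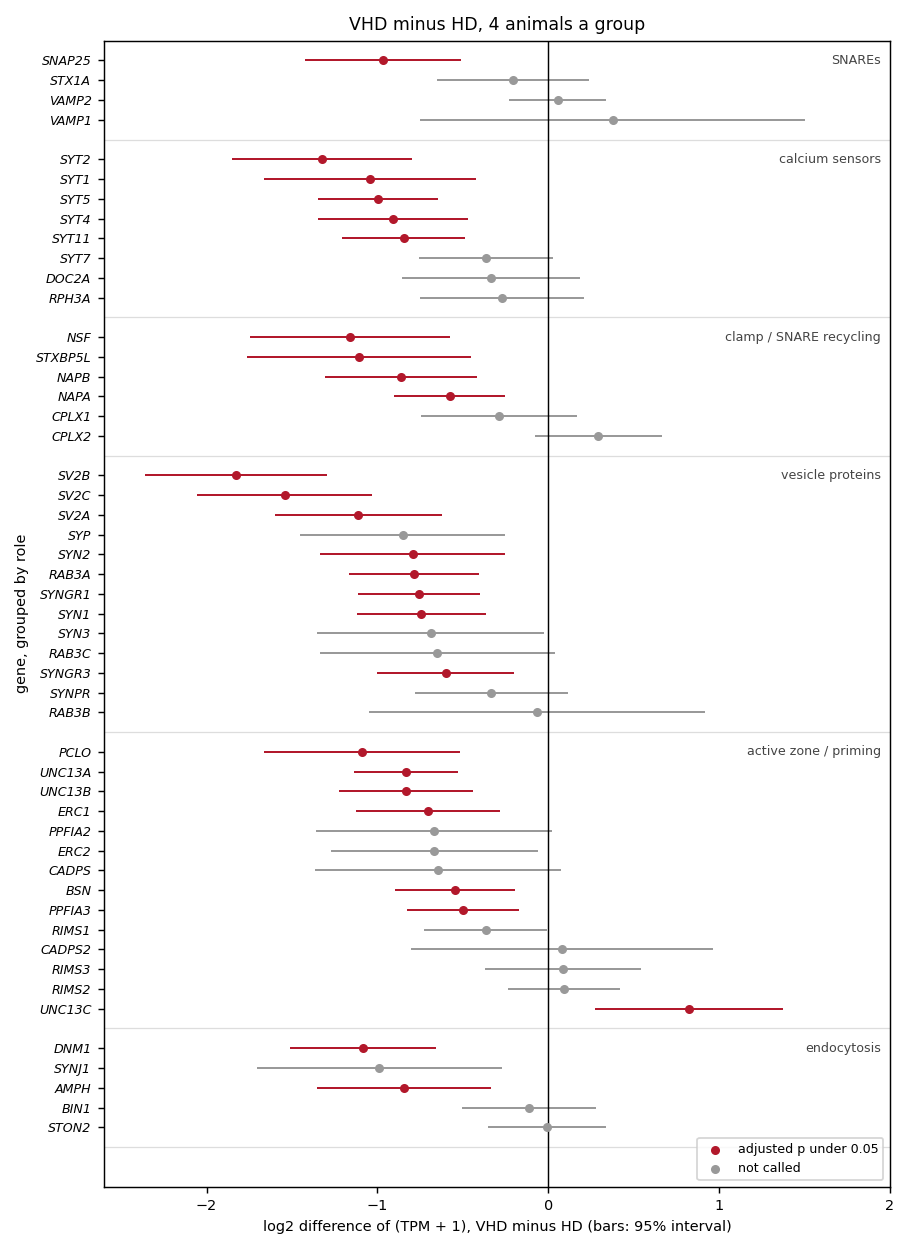
Log2 difference of TPM + 1 (VHD minus HD, 4 animals each) with its 95% interval for the 50 genes by role, in red where the adjusted p was under 0.05. The 26 red falls run from -0.50 for PPFIA3 to -1.83 for SV2B, and UNC13C is the one red rise, at 0.82.

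The vesicle glycoproteins SV2A, SV2B and SV2C, which share a transporter-like fold and take part in calcium-dependent release, all fell, and SV2B and SV2C held the widest gaps of the 50 genes. SV2B measured 54.0, 59.6, 42.0 and 60.0 TPM in HD and 21.8, 11.6, 9.41 and 17.4 TPM in VHD. No VHD animal came near the lowest HD animal, and the log2 fold change was -1.83 (SE 0.24, adjusted p = 0.0036). SV2C measured 67.8, 64.8, 68.5 and 48.7 TPM in HD and 27.5, 27.03, 18.9 and 12.6 TPM in VHD, a log2 fold change of -1.54 (SE 0.23, adjusted p = 0.0044). SV2A, the abundant member, fell by 1.11 (SE 0.22, adjusted p = 0.010), from 278, 312, 319 and 346 TPM to 175, 222, 107 and 104 TPM. The VHD values of SV2B lay inside the range of the controls (5.41 to 64.0 TPM, or from 8.84 TPM without control 6). Those of SV2C did so through control 6 at 7.61 TPM, and VHD 4 lay below the lowest of the other controls, at 13.8 TPM. For SV2A VHD 3 and VHD 4 lay below the lowest control, at 115 TPM.

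Of the other vesicle proteins, SYN1, SYN2, SYNGR1, SYNGR3 and RAB3A fell (limma), making 8 of 13 in that role, of which SYN1, SYN2, SYNGR3 and RAB3A did not pass under TMM. The log2 fold change was -0.74 for SYN1 (SE 0.17, adjusted p = 0.017) and -0.79 for SYN2 (SE 0.24, adjusted p = 0.049). The synaptogyrins, small membrane proteins of the vesicle, had -0.76 for SYNGR1 (SE 0.16, adjusted p = 0.013) and -0.60 for SYNGR3 (SE 0.18, adjusted p = 0.046). RAB3A measured 761, 948, 965 and 1130 TPM in HD and 604, 685, 429 and 503 TPM in VHD. Its lowest HD animal stood above its highest VHD animal, with a log2 fold change of -0.78 (SE 0.17, adjusted p = 0.014). Synaptophysin (SYP), the classic vesicle marker, had a difference of -0.85 that did not pass (SE 0.27, adjusted p = 0.055), and VHD 2 at 475 TPM lay among the HD animals, which had 387 to 672 TPM. SYNPR differed by -0.33 (SE 0.20, adjusted p = 0.274) and RAB3B by -0.07 (SE 0.45, adjusted p = 0.935), with wide overlap.

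Among the calcium sensors, 5 of 8 fell, all of them synaptotagmins. SYT2, the sensor of fast-spiking terminals, measured 67.7, 51.2, 77.9 and 59.0 TPM in HD and 34.0, 33.1, 15.99 and 20.3 TPM in VHD, a log2 fold change of -1.32 (SE 0.24, adjusted p = 0.0073). SYT5 measured 430, 508, 603 and 567 TPM in HD and 339, 226, 240 and 255 TPM in VHD, a log2 fold change of -0.995 (SE 0.16, adjusted p = 0.0050). The groups of both genes were clearly separate. SYT1 fell by 1.04 (SE 0.28, adjusted p = 0.031), SYT4, a synaptotagmin that binds calcium poorly, by 0.91 (SE 0.20, adjusted p = 0.014), and SYT11, of similar kind, by 0.85 (SE 0.16, adjusted p = 0.0088). SYT7, a slow sensor, differed by -0.36 (SE 0.18, adjusted p = 0.175), and DOC2A (-0.33) and RPH3A (-0.27) overlapped between groups.

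The SNAREs divided. SNAP25 measured 1885, 1475, 1287 and 1698 TPM in HD and 960, 1116, 653 and 594 TPM in VHD, a log2 fold change of -0.97 (SE 0.21, adjusted p = 0.014) with no overlap. VAMP2, its partner on the vesicle, measured 1121, 1168, 1153 and 1227 TPM in HD and 1214, 1355, 1040 and 1262 TPM in VHD. The groups of VAMP2 lay on top of each other, with a difference of 0.06 (SE 0.13) and a 95% interval from -0.22 to 0.33. STX1A (syntaxin 1A, -0.21, SE 0.20) and VAMP1 (0.38, SE 0.51) did not pass either, and VAMP1 rested on VHD 2 at 38.6 TPM against 4.95 to 5.08 TPM in the other VHD animals.

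Of the fusion clamp and recycling genes, NSF, its adaptors NAPA and NAPB (the SNAP proteins that load NSF onto SNARE complexes) and STXBP5L (tomosyn 2, which competes for SNAREs) fell, while neither complexin did. NSF measured 542, 512, 545 and 519 TPM in HD and 324, 384, 183 and 137 TPM in VHD, a log2 fold change of -1.16 (SE 0.27, adjusted p = 0.017). The HD animals spanned a narrow range and the VHD animals a broad one below it. NAPB differed by -0.86 (adjusted p = 0.018), NAPA by -0.58 (adjusted p = 0.025) and STXBP5L by -1.11 (adjusted p = 0.031). CPLX2 had a positive difference of 0.29 (SE 0.17, adjusted p = 0.244) and CPLX1 one of -0.29 (SE 0.21, adjusted p = 0.350).

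Of the 14 active zone and priming genes, 6 fell and 1 rose. UNC13A measured 105, 102, 101 and 111 TPM in HD and 71.8, 56.8, 54.0 and 52.7 TPM in VHD, a log2 fold change of -0.83 (SE 0.14, adjusted p = 0.0055). UNC13B fell by 0.83 (SE 0.18, adjusted p = 0.013). UNC13C measured 62.3, 33.8, 30.4 and 35.3 TPM in HD and 53.7, 70.9, 58.7 and 104 TPM in VHD, a log2 fold change of 0.82 (SE 0.25, adjusted p = 0.045). The 3 paralogues thus did not move together, although the groups of UNC13C overlapped through HD 1. Its call held in 3 of the 8 fits with 1 animal left out, and was lost with the oligodendrocyte score as a covariate. Controls had 29.6 to 92.3 TPM of UNC13C, with a mean of 60.1 TPM between those of HD (40.5 TPM) and VHD (71.9 TPM). The scaffolds piccolo (PCLO, -1.09, adjusted p = 0.020), ERC1 (-0.70, adjusted p = 0.032), BSN (-0.55, adjusted p = 0.038) and liprin alpha 3 (PPFIA3, -0.50, adjusted p = 0.041) also fell. RIMS1 was lower in all 4 VHD animals than in all 4 HD animals but did not pass (-0.37, adjusted p = 0.141), and RIMS2 (0.09) and RIMS3 (0.09) differed by less than their SE of 0.15 and 0.21.

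In endocytosis, DNM1 measured 467, 533, 580 and 605 TPM in HD and 320, 342, 201 and 195 TPM in VHD, a log2 fold change of -1.08 (SE 0.19, adjusted p = 0.0072). AMPH fell by 0.84 (SE 0.23, adjusted p = 0.032), while the lipid phosphatase SYNJ1 differed by -0.99 without passing (SE 0.33, adjusted p = 0.061). BIN1 (-0.11, SE 0.18) and STON2 (-0.01, SE 0.16) did not pass, and the 4 VHD values of STON2, 21.9 to 23.2 TPM, sat inside the HD range of 20.04 to 26.2 TPM.

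**Figure D3:**
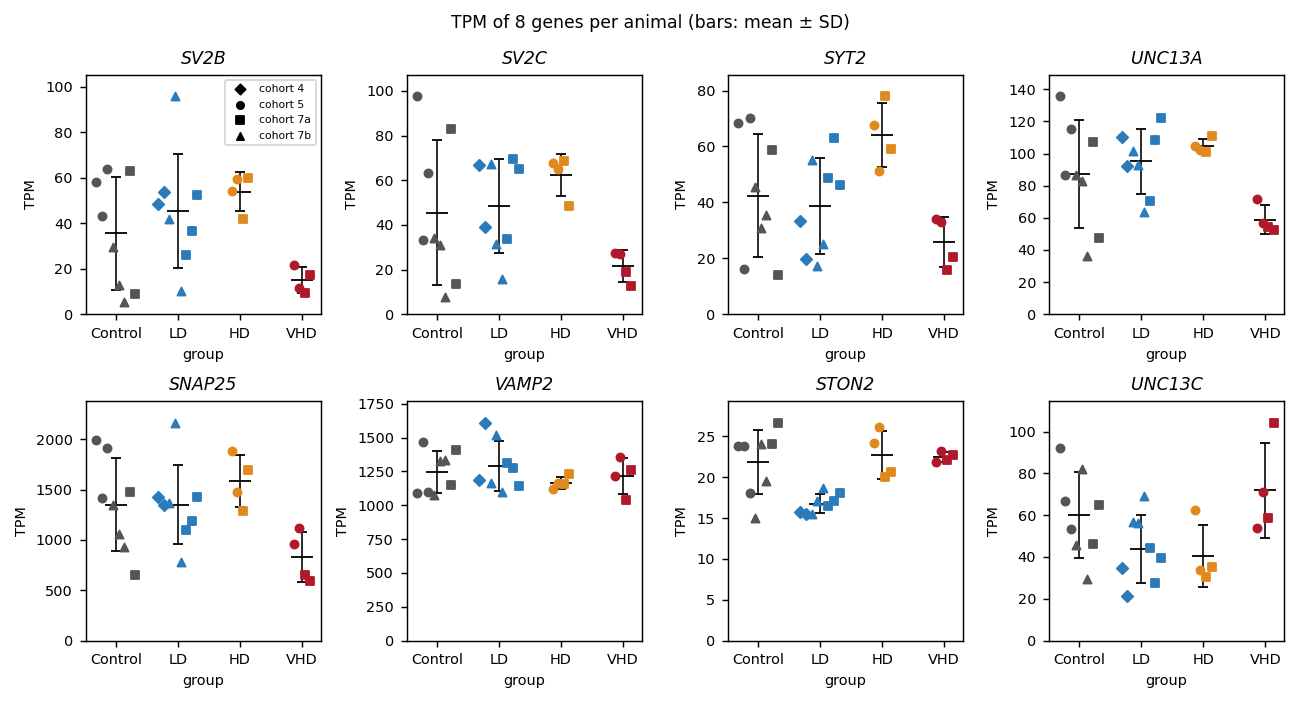
TPM per animal of 8 genes in controls and LD (8 animals each), HD and VHD (4 each), with the mean ± SD as a bar and cohort as the marker shape. SV2B, SV2C, SYT2, UNC13A and SNAP25 show VHD below HD with no overlap, VAMP2 does not, STON2 is lower in LD than in HD and VHD, and UNC13C has a rise of 0.82 on the log2 scale in VHD.

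Cohorts 5 and 7a each held 2 HD and 2 VHD animals. Of the 50 genes 36 were lower in VHD in both cohorts. The 26 genes called lower had to be, since their groups did not overlap, and their median difference was -0.54 in cohort 5 and -1.24 in cohort 7a, with the larger value in 7a for all 26. The interaction of this difference with cohort passed for 0 of the 50 genes (limma, background 0%), with 28 lower at an unadjusted p under 0.05 (16.4% of all genes were). Fitted alone with 2 animals a group, cohort 5 gave 0 calls (background 0.00733%) and cohort 7a gave 37 (background 27.2%). The score of the 50 genes was 0.14 and 0.19 in the HD animals of cohort 5 and 0.22 and 0.28 in those of cohort 7a, against -0.18 and 0.03, and -0.65 and -0.76, in the VHD animals. SV2B differed by -1.77 in cohort 5 and -1.89 in cohort 7a.

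The count of calls rested on few animals. Without VHD 3 it was 8 (background 3.49%), without HD 2, HD 3 and HD 4 it was 13, 12 and 13 (4.99%, 4.45% and 5.30%), and without VHD 2 it was 35 (34.1%). With cohort as a covariate 29 genes passed (20.2%), and with no filter on low values 17 (8.18%). SYT2, SYT5, SYT11, SV2A, SV2B, SV2C, UNC13A and DNM1 were called whichever of the 8 animals was left out.

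**Figure D4:**
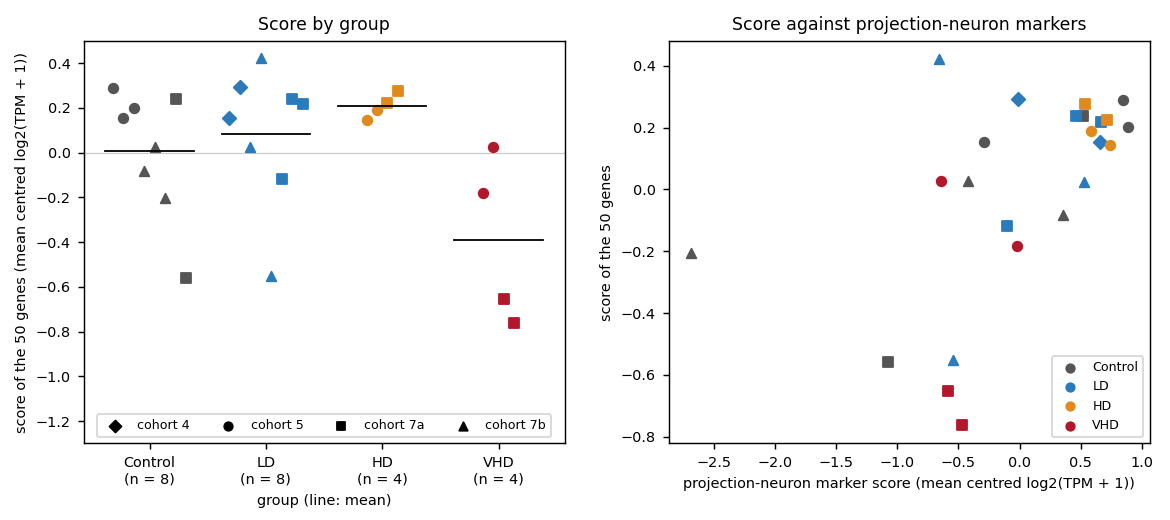
Score of the 50 genes per animal (mean centred log2(TPM + 1)) by group, with a line at the group mean and cohort as marker shape, and the same score against the projection-neuron marker score. HD animals lie between 0.14 and 0.28 and VHD animals between -0.76 and 0.03, and control 6 lies at -2.69 on the marker axis.

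Projection-neuron markers moved with the VHD and HD groups, and other neuron markers did so less evenly. Of 15 markers of striatal projection neurons, 15 had a lower mean in VHD and 13 lay in all 4 VHD animals below all 4 HD animals. Their summed level ran from 10324 to 11966 TPM in HD and from 4177 to 6912 TPM in VHD, with none at 0. Of 10 general neuron markers 7 had a lower mean in VHD and 3 lay lower without overlap. Their sums ran from 5889 to 7016 TPM in HD and from 3558 to 6255 TPM in VHD. Of 10 interneuron markers 5 had a lower mean in VHD. In the opposite direction, 3 of 10 astrocyte markers (sums of 3776 to 5699 TPM in HD and 7105 to 10382 TPM in VHD) and 3 of 10 microglia markers (386 to 498 and 503 to 871 TPM) lay higher without overlap. Markers without overlap numbered 0 of 12 for oligodendrocytes (2666 to 4566 and 2575 to 5433 TPM) and 0 of 8 for cortical glutamatergic neurons (7.37 to 265 and 8.70 to 31.0 TPM). They numbered 1 of 10 for interneurons (1429 to 1809 and 698 to 1592 TPM) and 1 of 7 for endothelial and mural cells (150 to 179 and 132 to 178 TPM). Means were lower in VHD for 8 of the 12 oligodendrocyte, 7 of the 8 cortical and 6 of the 7 endothelial and mural markers. The cortical marker SLC17A7 measured 4.69, 84.9, 0.866 and 186 TPM in HD and 10.6, 1.14, 1.75 and 19.4 TPM in VHD. The cortical score was not used as a covariate.

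With the projection-neuron score as a covariate, 0 of the 50 genes and 0 of 13637 genes passed in VHD against HD, and the median of the 50 was -0.46. That score ran from 0.54 to 0.74 in HD and from -0.64 to -0.02 in VHD without overlap, so it cannot be told apart from the groups in these 8 animals. With the general neuron score as a covariate 10 of the 50 passed (background 8.12%), 7 of them among the 27, and with the oligodendrocyte score 25 (15.6%).

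Across all 24 animals each of the 50 genes was also set against 4 marker scores, 200 relations with permutation p-values adjusted over all of them. With the projection-neuron score 20 genes had a positive and 4 a negative relation at an adjusted p under 0.05, and with the general neuron score 30 and 1. SV2C followed the projection-neuron markers most closely (r = 0.91, rho = 0.85, permutation adjusted p = 8.7e-05 and 0.00018), with r = 0.88 without the 2 animals farthest from the median, controls 6 and 8. Within cohorts 5, 7a and 7b (7, 9 and 6 animals) its r was 0.92, 0.94 and 0.90. Cohort 4 held too few animals for a value. UNC13A (r = 0.90, rho = 0.87), SYNPR (r = 0.90, rho = 0.81) and SYT5 (r = 0.89, rho = 0.86) followed with the same adjusted p-values, and had r = 0.85, 0.73 and 0.91 without those 2 animals. Within the cohorts r was 0.92, 0.97 and 0.92 for UNC13A, 0.86, 0.81 and 0.98 for SYNPR and 0.95, 0.98 and 0.88 for SYT5. VAMP1 went the other way (r = -0.79, rho = -0.60, permutation adjusted p = 0.00041 and 0.012), at -0.54 without those 2 animals and -0.77, -0.37 and -0.94 within the cohorts.

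The general neuron markers were followed most closely by CADPS (a priming factor, r = 0.95, rho = 0.93) and SYP (r = 0.94, rho = 0.94), each with permutation adjusted p = 8.7e-05 and 0.00018, the smallest these permutations can give, and with r = 0.91 and 0.94 without VHD 3 and VHD 4. Within cohorts 5, 7a and 7b r was 0.88, 0.97 and 0.93 for CADPS and 0.84, 0.98 and 0.98 for SYP. In cohort 5 both genes followed the oligodendrocyte score at least as closely. Within the cohorts r with that score was 0.90, 0.23 and 0.53 for CADPS and 0.94, 0.37 and 0.38 for SYP. Their r with the projection-neuron score was -0.058 and -0.016 over all animals, 0.29 and 0.31 without control 6, and -0.42, 0.72 and -0.68 for CADPS and -0.13, 0.77 and -0.52 for SYP within the cohorts. BIN1 followed the oligodendrocyte score (r = 0.91, rho = 0.77, permutation adjusted p = 8.7e-05 and 0.00029), with r = 0.85 without controls 6 and 7 and 0.92, 0.79 and 0.99 within the cohorts. RPH3A followed the cortical glutamatergic score (r = 0.76, rho = 0.67, permutation adjusted p = 0.00036 and 0.0032), at 0.54 without LD 4 and control 2 and 0.81, 0.76 and 0.88 within the cohorts. STX1A had r = 0.76 but rho = 0.45 with that score (permutation adjusted p = 0.00036 and 0.085), with r = 0.48 without those 2 animals, so that relation rests on them. For STX1A those animals measured 342 and 272 TPM, against at most 177 TPM in the rest.

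**Figure D5:**
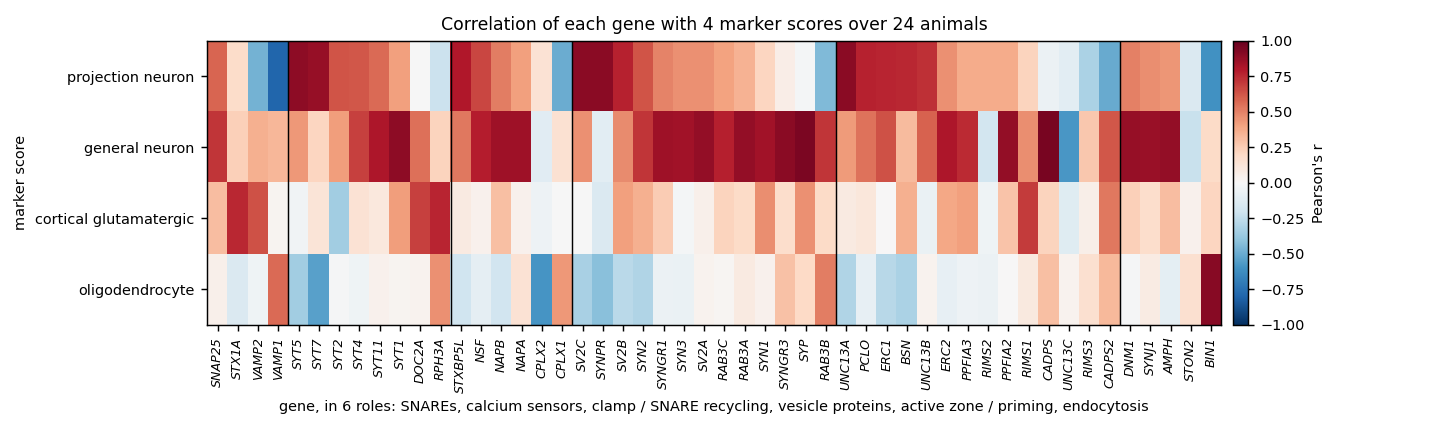
Pearson's r over 24 animals of each of the 50 genes (columns, by role) with 4 marker scores (rows), from -1 in blue to 1 in red. SV2C, SYNPR, UNC13A and SYT5 are deepest red on the projection-neuron score at r of 0.89 to 0.91, CADPS and SYP on the general neuron score at 0.95 and 0.94, and BIN1 on the oligodendrocyte score at 0.91.

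Set against controls in a model of 4 groups, which share the controls, HD and VHD lay on opposite sides. In HD against controls 0 of 50 passed (limma, background 0%), 2 had an unadjusted p under 0.05 (7.77% of all genes) and 39 differences were positive, with a median of 0.26 against -0.03 for all genes. In VHD against controls 0 of 50 passed (limma, background 0%), 46 differences were negative, 15 of them at an unadjusted p under 0.05 (23.2% of all genes were), and the median was -0.44 against -0.21. The smallest p in HD against controls belonged to SYT5 (0.74, SE 0.28), UNC13B (0.38, SE 0.19) and SYT2 (0.77, SE 0.39), each with an adjusted p of 0.582. In VHD against controls it belonged to SYT11 (-0.59, SE 0.21, adjusted p = 0.155), DNM1 (-0.65, SE 0.24, adjusted p = 0.155) and SNAP25 (-0.66, SE 0.26, adjusted p = 0.157). Without VHD 2 the count of genes passing in VHD against controls was 14 (background 28.1%) and without control 8 it was 6 (9.03%).

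None of the 50 genes passed for cohort itself (limma F test over 4 cohorts, 0 of 50, background 0%). At an unadjusted p under 0.05 the count was 1 of 50 (8.36% of all genes). BIN1 had the largest F (3.84, adjusted p = 0.540), followed by PCLO (2.77) and ERC1 (2.74), each with the same adjusted p. The HD* effect did not pass for a difference between cohorts 5 and 7a in any of the 50 (limma, 0 of 50, background 0%), nor at an unadjusted p under 0.05 (0 of 50, 2.16% of all genes). The smallest p there belonged to STX1A (0.89, SE 0.53), STON2 (-0.37, SE 0.23) and VAMP1 (-1.21, SE 0.84), each with an adjusted p of 1.00.

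Beyond the 50, 76 further genes of exocytosis and endocytosis were listed, again with earlier results known. Of these, 75 were found and 71 tested. In VHD against HD 18 of the 71 fell and 2 rose (background 11.4% and 3.23%), with a median of -0.42. The falls included SLC32A1, which loads GABA into vesicles, at 343 to 427 TPM in HD and 155 to 263 TPM in VHD (-0.97, SE 0.17, adjusted p = 0.0069). The clathrin heavy chain CLTC (-1.01, adjusted p = 0.012) and the adaptor subunits AP2A1, AP2A2, AP2B1 and AP2M1 fell as well, by 0.51 to 0.85. The remaining subunit AP2S1 (-0.25, adjusted p = 0.196) and the clathrin light chains CLTA (0.02, adjusted p = 0.905) and CLTB (-0.35, adjusted p = 0.1003) did not pass. SNCG (gamma-synuclein) rose by 0.92 (SE 0.22, adjusted p = 0.019), from 428 to 515 TPM in HD to 564 to 1371 TPM in VHD, and VAMP8 by 0.86 (SE 0.26, adjusted p = 0.046), from 5.87 to 8.51 TPM to 8.19 to 19.0 TPM.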

How the data were processed

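The authors sequenced polyA-selected libraries of NAcc core RNA from 24 animals, mapped them with STAR 2.5.2b to MacaM, a rhesus assembly, kept uniquely aligned reads and counted them on genes with HTSeq 0.6.1p1, per their processing notes. The values deposited by the authors are TPM, 1 column per animal, while their deposited name calls them normalized counts. How counts were turned into TPM, and with which gene lengths, is not given in the sources used here, and strand and read pairing are described differently between the sources. Columns add up to between 999998 and 1000000 over 17208 symbols, so depth is unknown and no model of read counts was fitted.

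Groups, cohorts and intake came from the sample labels. Genes averaging 1 TPM or more (13637) were tested on log2(TPM + 1), a scale on which low genes change less than they do in TPM, with limma 3.58.1 in R 4.3.3 (empirical Bayes with a trend) and Benjamini-Hochberg adjustment over all genes at 0.05. One model of 3 groups gave HD*, LD* and control contrasts, and models of the 8 HD* animals, the 16 drinkers, cohort and the cohort interaction gave the rest. Nothing in the labels names repeat samples of an animal, so animals are the replicates. The tests were tested on simulated data. Correlations used 100000 permutations in Python 3.11.15 (scipy 1.17.1, pandas 2.3.3, numpy 2.4.6). Plots were drawn with matplotlib 3.10.9.

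Tests are printed for representatives of each role in HD* against controls and for every gene of the 50 called. They are also printed for the 3 of the 50 genes lowest in p per comparison, except the cohort interaction of VHD against HD. In VHD against HD further genes, some of them not called, are printed to fill out the roles and the wider list. The 50 genes, the marker lists and the wider list were chosen with earlier results of these data known. Alternatives were pseudocounts of 0.1 and 8, no filter and a filter of 10 TPM, TMM (trimming 30% of M and 5% of A), array weights, cohort and marker scores as covariates, cohorts alone, only the compared groups, and each animal left out in turn. The general neuron covariate, the single cohorts, the model of 4 groups and the cohort interaction of VHD against HD were added after the data had been seen. No sequence or coordinate is given because no genome of the build used was at hand.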

Additional observations from a re-analysis of the deposited data

Results flagged for a closer look

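Single animals stood far from the rest of their group for 11 of the 38 genes examined. By Dixon's criterion this happened 16 times in 195 tests of groups of 4 or 8 animals. The tests share animals, since HD* holds HD and VHD, so the criterion's chance rate of about 1 in 20 is only a rough guide. Control 6 was high for VAMP1 (67.8 TPM, the other controls 5.06 to 20.01), CPLX1 (593 TPM), BIN1 (580 TPM), RAB3B (54.0 TPM) and SYNGR3 (378 TPM). The same animal had the lowest projection-neuron marker score (-2.69) and the highest oligodendrocyte score (1.63), and the part of either in these values was not tested. VHD 2 was high for VAMP1 (38.6 TPM, both within VHD and within HD*) and for RAB3B (52.2 TPM, likewise in both groups). LD 4, the animal with the highest SLC17A7, was high for SNAP25 (2165 TPM, other LD* animals 782 to 1429), RIMS1 (50.8 TPM), RPH3A (201 TPM) and STX1A (342 TPM). Control 2, second highest for SLC17A7, was high for STX1A (272 TPM, other controls 53.6 to 105). HD 1 was high for UNC13C (62.3 TPM, other HD animals 30.4 to 35.3), and control 8 was low for AMPH (34.9 TPM, other controls 65.0 to 87.5).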

How the results depend on the processing

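Among controls, LD* and HD*, for HD against controls, the intake slope, cohort and the cohort interaction of HD*, 0 of the 50 genes passed under each alternative run. Of the summary values over all comparisons 494 stayed close to the main value and 19 moved. For counts, close meant an equal or similar number. For scores and medians it meant within the spread between animals, so a change of sign could count as close. The median of the 50 in HD* against controls, for example, ran from -0.17 to 0.0060 with 1 animal left out. Genes called in VHD against HD numbered 17 with no filter, 10 with the general neuron score as a covariate, 0 with the projection-neuron score and 0 in cohort 5 alone, and 8 to 35 with 1 animal left out. The median log2 fold change of the 50 in VHD against HD was -0.29 with the general neuron score, -0.34 in cohort 5 and -1.08 in cohort 7a, and their score differed by -0.21, -0.25 and -0.96. With array weights 34 were called in VHD against controls (46.1% of all genes were), with 1 animal left out 0 to 14, and with the general neuron score the median there was -0.083. The cohort interaction of VHD against HD called 0 to 1 with 1 animal left out. Of the single genes, BSN was 0.38 in VHD against HD with the projection-neuron score. In HD* against controls, signs turned with TMM for VAMP2 (0.078), CPLX2 (0.11), SYN1 (0.021), BSN (0.10), DNM1 (0.019) and BIN1 (0.060). They turned with array weights for VAMP2 (0.0039), SYN1 (0.16), SV2A (0.11), BSN (0.0018), NSF (0.0079), DNM1 (0.13) and BIN1 (0.043), and with the general neuron score for SYN1 (0.028), SV2A (0.069), BSN (0.018), NSF (0.042) and DNM1 (0.067). In cohort 5 alone they turned for VAMP1 (0.50), VAMP2 (0.0037), CPLX2 (0.12), BIN1 (0.19) and RAB3B (0.26), and in cohort 7a alone for SYN1 (0.081), SV2A (0.014), NSF (0.042) and DNM1 (0.046). BIN1 was 0.11 with cohort as a covariate, 0.11 in the cohorts holding both groups, 0.13 with the oligodendrocyte score and 0.017 with the projection-neuron score. With 1 animal left out the values ran from -0.14 to 0.051 for CPLX2, -0.29 to 0.0033 for SV2A, -0.17 to 0.047 for BSN, -0.34 to 0.040 for NSF, -0.23 to 0.019 for DNM1 and -0.14 to 0.056 for BIN1. The cause of these changes was not tested. No paired analysis was possible because the labels give the groups no shared replicate numbers. TPM hides depth, so precision at low levels is unknown, and tissue composition could not be separated from expression per cell.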
